A study of Mus musculus with 4 samples.

Results

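Single promoters that Eya1 occupied in both ChIP-seq replicates are described here. They numbered 1743 of the 5482 intervals left after the peaks of both replicates were merged on the nuclear chromosomes (31.8%). An interval belonged when it overlapped a peak of replicate 1 and a peak of replicate 2, was under 2000 bp wide, lay within 1 kb of a GENCODE M21 transcription start site (TSS), and was not within 1 kb of both 5′ ends of a divergent pair of protein-coding genes. The members were therefore selected on their occupancy, width and distance to a TSS, and those measures are given below as description, with no test. Of the 2424 intervals with peaks of both replicates, 274 were at or over the width limit and 228 narrower ones at a TSS lay at a coding pair.

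Chromatin came from whole kidneys of E13.5 mouse embryos whose Eya1 allele carries a knockin of HA and FLAG tags, with beads against FLAG used for precipitation. Each assay pooled 80 kidneys, so a replicate is a pool and not an animal. All cell types of the kidney contributed chromatin, whereas only cells with the tagged Eya1 can give Eya1 signal. Of the 4 samples, 2 were replicates of the Eya1 ChIP and the others an input and an IgG control. The knockin mice were kept on a mixed C57BL/6J and 129/Sv background. The deposited lists give chromosome, start and end of each peak, without scores or read counts, so the depth behind a peak is unknown, and input and IgG are not analysed here.

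Eya1 is a coactivator and phosphatase that does not bind DNA by itself and is brought to chromatin by partners such as Six2, and in the embryonic kidney it is known for maintaining nephron progenitors. Most mammalian promoters of broadly expressed genes are CpG islands, where transcription factors of the SP, ETS, NRF1 and NFY families bind just upstream of the TSS. As further background, RE1 is the recognition element of REST, a zinc finger repressor that keeps neuronal genes silent outside neurons with the help of histone deacetylases, Kdm1a and Sin3 proteins. ZFX is a zinc finger activator known to bind downstream of the TSS at CpG islands.

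Short stretches of the mm10 reference (GRCm38) show the sequences that the results turn on, with the matched letters in capitals. The first set gives RE1, on the strand of the element, at 8 of the 10 members of the neuronal list below that held it in the replicate 2 window. Ptprn2, whose element has 2 mismatches, and Vgf, whose element of 1 mismatch lay 859.5 bp from the midpoint, are not shown.
Chga: ggaggaTTCAGCACCTCGGACAGcaccag
Chgb: tgggatTTCAGCACCCCGGACAGctccta
Ptprn: cctaggTTCAGAACCATGGACAGcgccat
Snap25: tgacctTTCAGCACCGCGGACAGcgatcc
Bdnf: agtccaTTCAGCACCTTGGACAGagccag
Scn2a: ttggctTTCAGCACCACGGACAGcaccag
Grin1: atacgcTTCAGCACCTCGGACAGcacccg
Cacna1b: gacgccGTCAGCACCACGGACAGctgcct
Of these, the Chga stretch is chr12:102555232-102555260 (plus strand, intron, 277 bp downstream of the TSS), that of Chgb chr2:132781788-132781816 (plus, intron, 524 bp downstream), that of Ptprn chr1:75263153-75263181 (minus, intron, 1046 bp downstream), that of Snap25 chr2:136714332-136714360 (plus, intron, 868 bp downstream), that of Bdnf chr2:109676039-109676067 (plus, UTR, 156 bp downstream), that of Scn2a chr2:65619958-65619986 (plus, intergenic, 799 bp upstream), that of Grin1 chr2:25319012-25319040 (minus, UTR, 69 bp downstream) and that of Cacna1b chr2:24762077-24762105 (plus, intron, 956 bp downstream). All match the RE1 consensus with 0 mismatches apart from Cacna1b, which has 1.

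The second set shows, on the strand of the gene, the match nearest to a replicate 2 midpoint among members for 5 other motifs that the tests below called.
ZFX at Ncoa7: aggcggggccAGGCCTTGaaggctaccg
YY1 at Abi2: gaaggatgtgAAGATGGCGgagctgcaga
SP at Rrbp1: agttggcggcGGGGCGGGGcggcgcacag
E2F at Spata6: gccccgcgtcTTCCCGCCgtagtcgggc
CRE at Ssu72: gcaggtcctgTGACGTCAcgcgccggcg
The Ncoa7 stretch is chr10:30802790-30802817 (minus strand, intron), that of Abi2 chr1:60409790-60409818 (plus, exon), that of Rrbp1 chr2:144010619-144010647 (minus, intron), that of Spata6 chr4:111720139-111720166 (plus, UTR) and that of Ssu72 chr4:155705110-155705137 (plus, UTR). The matches lay 0.5, 3.5, 2, 5 and 11 bp from the replicate 2 midpoint, in that order.

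The third set shows the YY1 letters just past the TSS, on the sense strand, at members that encode regulators.
Kat5: ggagggagggAAGATGGCGgaggtggtga
Map4k4: cgacccggggAAGATGGCGaacgactctc
Kat6a: cactgtctccAAGATGGCGgccgtgtcag
Kmt2b: tcacggtgccAAGATGGCGgcggcggcgg
Zfp292: gcgggctgcgAAGATGGCGgacgatgagg
These are chr19:5610014-5610042 (minus strand) for Kat5, chr1:39901217-39901245 (plus) for Map4k4, chr8:22859545-22859573 (plus) for Kat6a, chr7:30588702-30588730 (minus) for Kmt2b and chr4:34882904-34882932 (minus) for Zfp292. Kat5 and Kat6a are histone acetyltransferases, Kmt2b is a histone H3 lysine methyltransferase, Map4k4 is a kinase and Zfp292 is a zinc finger protein. The letters of Kat6a lay in a UTR and those of the other 4 genes in an exon.

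To describe the members themselves, the peaks of each replicate were measured within the merged intervals. Members were a median of 1142 bp wide (quartiles 876.5 and 1416.5 bp). The 2 replicates contributed to that width very unequally. In replicate 1 the peak length per member had a median of 1138 bp, and in replicate 2 it had a median of 261 bp, with a range of 117 to 1286 bp. In 1659 members (95.2%) every replicate 2 peak lay inside a replicate 1 peak. A single replicate 2 peak was present in 1478 members, 2 in 235 and 3 in 30, whereas replicate 1 gave 1 peak in 1738 members and 2 in 5.

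Values near the limits of the rule show how the set ends. The widest members were at Tab2 (1997 bp), Eif5 (1991 bp) and Srsf10 (1988 bp), and the narrowest intervals left out were at Yy1 (2000 bp), Top2b (2001 bp) and the noncoding 1810012K08Rik (2001 bp). The members farthest from a TSS were at Slc7a14 (969 bp), Cryba2 (923 bp) and Vstm2l (895 bp), and the intervals just past the limit were at Zfhx3 (1018 bp), Gm26871 (1028 bp) and Gabbr2 (1043 bp). For divergent genes, the pair Ubap2l and 4933434E20Rik (5′ ends 992 bp apart) was left out, and the pair March5 and Cpeb3 (1058 bp apart) stayed in.

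A start of a basic protein-coding transcript lay within 1 kb of 1687 members, and all promoter windows below refer to these. In 1438 of them the interval contained that start. Of the other 56 members, 26 lay at another start of a coding gene and 30 at noncoding genes alone, among them the snoRNA hosts Snhg5, Snhg6 and Snhg8 and the microRNA genes Mir132 and Mir212, which share an interval. Members were found on every autosome and 9 lay on the X chromosome, at 0.949 per 100 of its coding genes, whereas every autosome held 5.14 or more per 100. The X-linked members were Usp9x, Kdm6a, L1cam, Zfx, Nono, Atrx, Nbdy, Mbtps2 and Rbbp7.

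Eya1 peaks were centred downstream of the TSS. The midpoint of the replicate 1 peak lay downstream of the nearest coding start in 1471 of 1687 members (87.2%, exact Clopper-Pearson 95% CI 85.5 to 88.8%), and that of replicate 2 in 1474 (87.4%, 95% CI 85.7 to 88.9%). The mean of the replicates was 87.3% ± 0.126 (SD, n = 2). Both shares come from the same intervals, chosen for overlap of the replicates, so this SD does not measure spread between pools. The median position was 279.5 bp downstream in replicate 1 and 234.5 bp downstream in replicate 2, and the middle 50% of members spanned 122 to 435.5 bp and 125 to 376 bp. Only 25 replicate 1 and 35 replicate 2 midpoints lay more than 500 bp upstream. The rule used the distance to a TSS but not the side, and intervals cover counting error over members only.

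**Figure D1:**
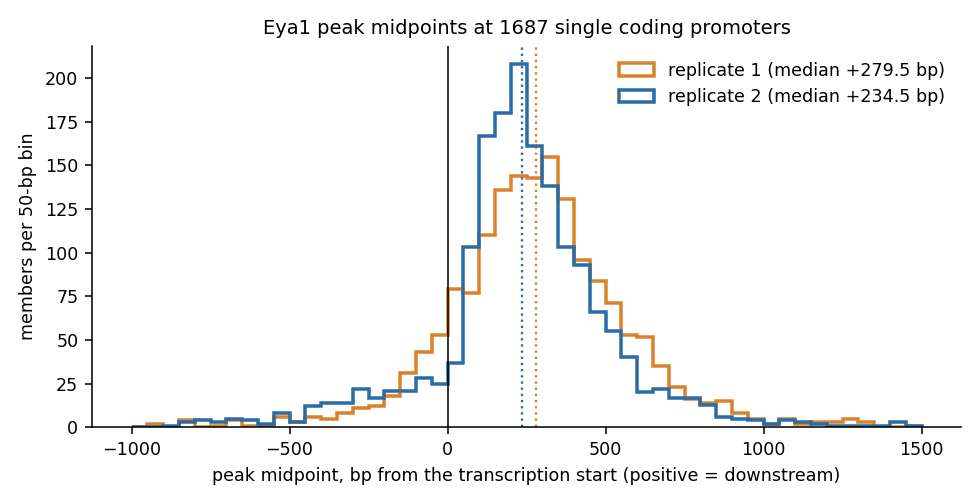
Position of the peak midpoint (x axis, bp from the nearest coding TSS, positive downstream) for the 1687 members with such a start, as members per 50-bp bin (y axis), for replicate 1 (orange) and replicate 2 (blue). Dotted lines mark the medians of 279.5 and 234.5 bp, and both distributions lie mainly to the right of the start.

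Single promoters listed in only 1 replicate were centred on the same side slightly less often. Downstream midpoints made up 83.7% of 1448 promoters listed in replicate 1 only, against 87.2% of members on the same replicate 1 midpoints (Fisher's exact test, two-sided, p = 0.00587). For the 677 promoters listed in replicate 2 only, the share was 81.5% against 87.4% (Fisher's exact test, p = 0.000341). Such tests treat promoters as units and describe these libraries, since promoters of 1 list are not biological replicates.

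Within a member the replicates placed their midpoints a median of 139.5 bp apart, and in 37.1% of members they lay within 100 bp of each other. Across members the positions of both midpoints gave a Pearson's r of 0.747 and a Spearman's rho of 0.611 (n = 1687), as a description across regions that share the TSS and the rule. When set on the gene model, the replicate 2 midpoint lay in the first exon in 564 members (33.4%), past the first exon in 911 (54%) and upstream in 212 (12.6%). Replicate 1 gave 528, 944 and 215. Midpoints lay farther downstream where the first exon was longer. At first exons of 4 to 118 bp the median replicate 2 midpoint was 188 bp downstream, at 119 to 205 bp it was 212.5 bp, at 206 to 347 bp it was 252.5 bp and from 348 bp on it was 333.75 bp (Spearman's rho 0.223 across members, as a description).

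To learn which genes the members mark, coding genes near them were counted in 36 gene lists. Of all coding genes, 7.9% (1732 of 21911) had a member within 1 kb of a start, which is the share set by the rule and the background for every count below. Lists were chosen with earlier results known, so counts are a description and no list was tested.

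**Figure D2:**
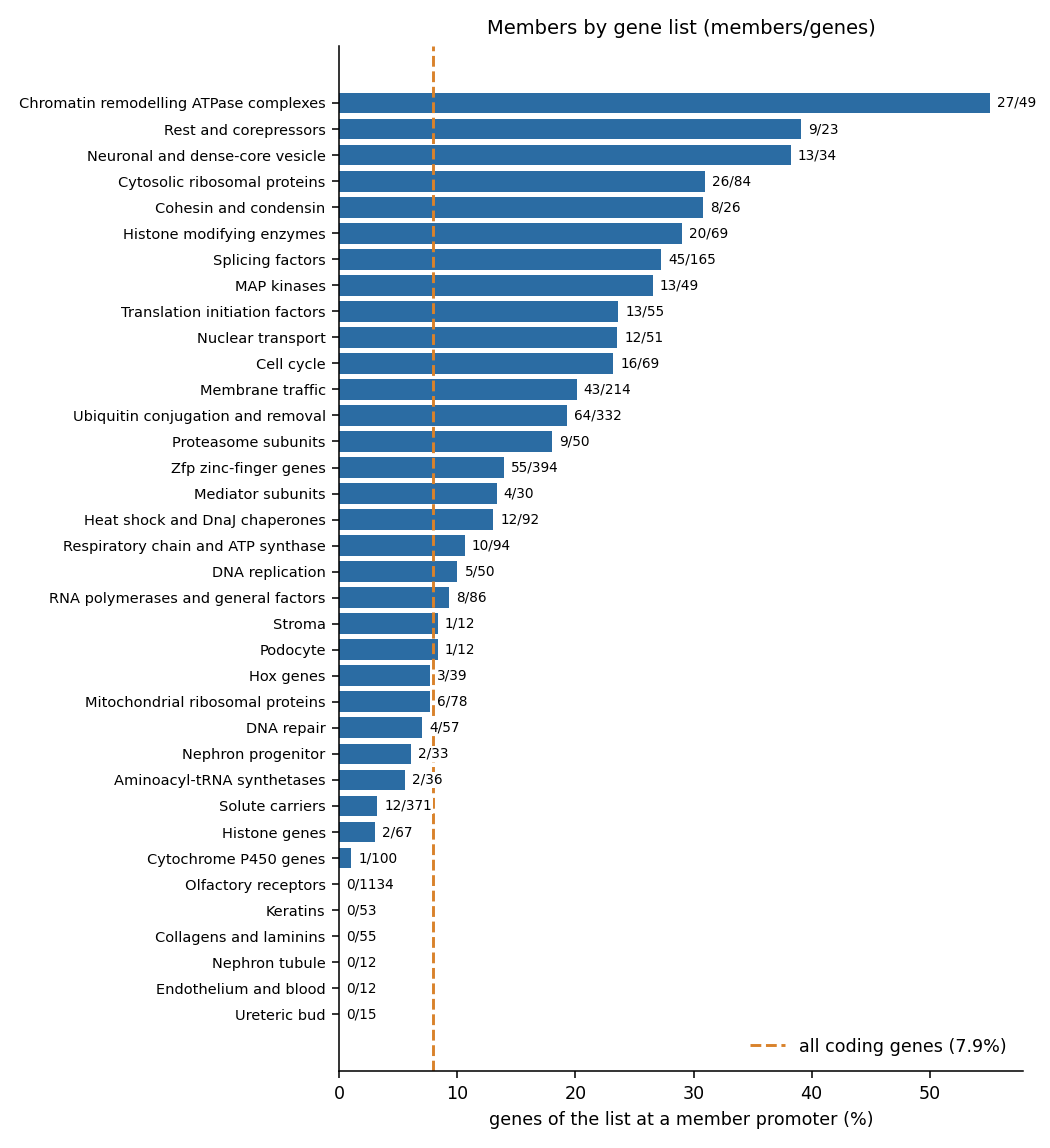
Share of each gene list that lay at a member promoter (x axis, % of the genes of the list), with members and list size printed at each bar and the 7.9% of all coding genes as a dashed line. Chromatin remodelling complexes reach 27 of 49 genes, and lists of tissue-restricted families such as olfactory receptors and keratins hold 0.

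Chromatin regulators were the list with the greatest share. Among subunits of ATP-dependent remodelling complexes, 27 of 49 genes (55.1%) were at members. BAF and PBAF subunits were Smarcb1, Smarcc1, Smarcc2, Smarcd1, Smarcd2, Smarce1, Arid2, Brd7, Ss18 and Actl6b. NuRD subunits were Chd3, Mbd2, Mbd3, Mta1, Mta2, Mta3, Gatad2a and Gatad2b, and Ino80, Ep400, Srcap, Bptf, Baz2a, Baz2b, Atrx, Chd1 and Chd6 came from other remodellers.
Arid2, the subunit that defines PBAF, had 2 members. The first was chr15:96286995-96288200, with a replicate 1 peak of 1174 bp and 3 replicate 2 peaks that summed to 1077 bp, and the second was chr15:96288299-96289123, with a replicate 2 peak of 502 bp. At Ino80, the ATPase of its complex, replicate 2 peaks summed to 1037 bp of an interval of 1796 bp. Smarce1 had a replicate 2 peak of 885 bp, and its midpoint lay 637 bp downstream of the TSS.

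Enzymes that modify histones gave 20 of 69 genes (29%). They included the methyltransferases Kmt2b, Kmt2c, Setd2 and Nsd2, the demethylases Kdm3b, Kdm4a, Kdm5b and Kdm6a, the acetyltransferases Kat5, Kat6a and Kat7 and the acetyl-lysine readers Brd1 and Brd3. Setd2, the enzyme that trimethylates H3K36, had a replicate 2 peak of 832 bp whose midpoint lay 366.5 bp downstream. The list of cohesin and condensin gave 8 of 26 genes (30.8%), none of them a condensin subunit. These were the loader Nipbl, the release factor Wapl, Pds5a, Pds5b, Smc3, Smc5, Stag1 and Esco1. The widest replicate 2 occupancy of any member was at Zmynd11, a reader of H3K36 methylation (1286 bp in 3 peaks), and at Gabpb1, a subunit of the ETS factor GABP (1230 bp in 2 peaks), which were named after their values were seen.

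Rest and its corepressors had 9 of 23 genes at members (39.1%). Rest itself lay at chr5:77265487-77267178, where the replicate 1 peak of 1692 bp was centred 136.5 bp downstream of the TSS and the replicate 2 peak of 980 bp was centred upstream, at -119.5 bp. Kdm1a, the demethylase of the CoREST complex, had a replicate 2 peak of 650 bp centred 383.5 bp downstream. Hdac1 and Hdac2, the deacetylases shared by CoREST, Sin3 and NuRD, had replicate 2 peaks centred 323.5 and 413 bp downstream, and Sin3a and Sin3b at 236.5 and 167 bp. Ctbp1, Ehmt1 and Rbbp7 completed the group. None of the 9 held RE1 in its 200-bp window on the replicate 2 midpoint, where 7.34% of all members did. The Hdac1 interval held an element of 2 mismatches 698.5 bp from that midpoint. All 9 replicate 1 midpoints lay downstream of the TSS, as did 87.2% of those of all members with a coding start.

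Lists of RNA processing and protein synthesis differed among themselves. Splicing factors gave 45 of 165 genes (27.3%), among them Srsf1, Srsf6, Hnrnpf, Sf3b1 and U2af1, and cytosolic ribosomal proteins gave 26 of 84 (31%), such as Rpl19 and Rps29. Translation initiation factors gave 13 of 55 (23.6%) and nuclear transport 12 of 51 (23.5%). The ribosomal proteins of mitochondria, in contrast, gave 6 of 78 (7.69%) and aminoacyl-tRNA synthetases 2 of 36, both near or under the share of all coding genes. MAP kinases and their partners gave 13 of 49 (26.5%). Cell cycle genes gave 16 of 69 (23.2%), with Cdk1, Cdk4 and Cdc25a. The 16 also held Ccnl1, Ccnl2, Ccnt1, Ccnt2, Cdk7 and Cdk12, cyclins and kinases known from transcription or splicing. DNA replication gave 5 of 50 (10%) and DNA repair 4 of 57 (7.02%). Membrane traffic (43 of 214, 20.1%), ubiquitin conjugation and removal (64 of 332, 19.3%), proteasome subunits (9 of 50, 18%) and Zfp zinc finger genes (55 of 394, 14%) lay between cell cycle and DNA replication. Mediator subunits (4 of 30), heat shock and DnaJ chaperones (12 of 92), the respiratory chain and ATP synthase (10 of 94), and RNA polymerases with general factors (8 of 86) were closer to the background. Low shares here follow the rule and are not a lack of peaks. With peaks of any kind within 1 kb of a start, every list of this paragraph exceeded the 23.5% of all coding genes. Mitochondrial ribosomal proteins reached 38.5%, aminoacyl-tRNA synthetases 33.3%, DNA replication 36%, DNA repair 42.1% and RNA polymerases with general factors 41.9%.

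Genes that mark kidney cell types were at members about as often as all coding genes, or not at all. Of 33 nephron progenitor genes, 2 were at members (6.06%). At Sox11, a transcription factor of progenitors, replicate 1 gave a peak of 1690 bp and replicate 2 gave 2 peaks, of which the widest measured 199 bp. The stroma gave Foxd1 alone (1 of 12, 8.33%) and podocytes gave Cd2ap (1 of 12), while ureteric bud (15 genes), nephron tubule (12) and endothelium and blood (12) gave 0. When peaks of any kind within 1 kb of a start were counted, in either replicate and of any width, the shares were 15 of 33 progenitor genes (45.5%), 5 of 12 stromal genes, 5 of 12 podocyte genes (41.7% each), 3 of 15 ureteric bud genes, 1 of 12 tubule genes and 0 of 12 endothelial and blood genes, against 23.5% of all coding genes. Olfactory receptors (1134 genes), keratins (53) and collagens and laminins (55) gave 0 as well, solute carriers gave 12 of 371, Hox genes 3 of 39, histone genes 2 of 67 and cytochrome P450 genes 1 of 100. A peak of any kind lay at 16 of 39 Hox genes (41%), whereas the other families of that sentence stayed under 23.5%. Occupancy at a promoter does not measure expression. In whole kidneys, fewer cells of a type, cells without the tagged Eya1 and less occupancy per cell cannot be told apart.

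Of 34 neuronal and dense-core vesicle genes, 13 were at members (38.2%). The granins Chga and Chgb, which pack hormone granules, had replicate 2 peaks of 279 and 281 bp and replicate 1 peaks of 1488 and 754 bp. Snap25, a SNARE protein of synaptic vesicles, had a replicate 2 peak of 273 bp within a replicate 1 peak of 615 bp, and Grin1, an NMDA receptor subunit, had 223 bp within 1156 bp. Bdnf, a neurotrophin, had 189 bp within 468 bp. Ptprn and Ptprn2, membrane proteins of secretory granules, had 171 and 176 bp, and the granule proteins Scg2, Scg3 and Vgf, the release factor Unc13a and the channel subunits Scn2a and Cacna1b made up the rest. RE1 lay in the 200-bp replicate 2 window of 10 of the 13, all but Scg2, Scg3 and Unc13a.

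To ask which recognition sequences lay at the peaks, 14 motifs were searched on both strands in 200-bp windows on the replicate 2 midpoint and compared with windows 1 kb to either side (Fisher's exact test, two-sided, Benjamini-Hochberg over the motifs). RE1 was searched with at most 2 mismatches, and the others by exact letters: SP as GGGGCGGGG, ETS as CCGGAAGT, NRF1 as CGCATGCG, YY1 as AAGATGGCG, NFY as CCAATCNG, CRE as TGACGTCA, E-box as CACGTG, ZNF143 as CTACAATTC, ZBTB33 as CTCGCGAGA, E2F as TTCCCGCC, ZFX as AGGCCTNG and RFX as GTTGCCAT, and SIX2 by its consensus. In the promoter windows of members, matches of different motifs overlapped in 5 cases, all with SP. Each window and its flanks came from 1 member, and the test pooled them without that pairing. A match is a property of the sequence and not a measurement of binding.

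Of the 14 motifs, 7 were more frequent at the midpoints than in the flanks and 1 was less frequent. ZFX letters were in 195 of 1743 windows (11.2%) against 3.07% of flanks (adjusted p = 4.32e-29, Fisher's exact test). RE1 was in 128 (7.34%) against 1.58% (adjusted p = 5.75e-24, Fisher's exact test), and SP in 6.94% against 1.69% (adjusted p = 1.87e-20). E2F rose to 2.93% against 0.459%, YY1 to 1.72% against 0.0861%, ETS to 1.26% against 0.258% and NRF1 to 0.287% against 0.0287% (adjusted p = 2.3e-12, 1.98e-11, 5.32e-05 and 0.0311, Fisher's exact test). The NRF1 call rested on 5 member windows and 1 flank, and was lost in 100-bp windows (0.172% against 0.0287%, adjusted p = 0.222, Fisher's exact test). NFY was lower, at 0.574% against 1.49% (adjusted p = 0.00799, Fisher's exact test), a call that was lost in windows of 100 or 400 bp and on replicate 1 midpoints (1.26% against 1.43%). CRE, E-box, ZNF143, ZBTB33, RFX and SIX2 did not pass. CRE passed on replicate 1 midpoints (0.688% against 0.172%, adjusted p = 0.00906), in 400-bp windows (1.72% against 0.488%, adjusted p = 5.67e-05) and against flanks 3 kb away (0.115%, adjusted p = 0.00717, Fisher's exact test throughout), and ZBTB33 passed in 400-bp windows (0.574% against 0.143%, adjusted p = 0.0166, Fisher's exact test). SIX2, the consensus of the progenitor factor that partners Eya1, was in 0.229% of windows and 0.115% of flanks (95% CI of the members 0.0626 to 0.587%).

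Flanks differ from the windows in their distance to the TSS, so windows of promoters with no listed peak, placed downstream at the members' median replicate 2 distance, were also compared, a choice made after seeing the data. NRF1 was in 0.287% of member windows and 0.284% of these. Restricted to CpG-rich promoters in both sets, ZFX was in 11.3% of member windows against 3.83% (adjusted p = 4.75e-23, Fisher's exact test), RE1 in 5.07% against 2.55% (adjusted p = 2.5e-05), YY1 in 1.87% against 0.506% (adjusted p = 2.5e-05) and CRE in 0.667% against 0.154% (adjusted p = 0.00806). NFY stayed lower, at 0.533% against 1.52% (adjusted p = 0.00723, Fisher's exact test). For SP (6.8% against 5.9%), E2F (3.07% against 2.24%), ETS (1.4% against 0.88%) and NRF1 (0.267% against 0.44%) no difference passed. Over all coding promoters a 200-bp window at that distance held ZFX in 4.17%, RE1 in 2.41%, SP in 4.2%, E2F in 1.76%, YY1 in 0.627%, ETS in 0.952%, NRF1 in 0.375%, NFY in 1.3%, CRE in 0.27%, E-box in 2.81%, ZNF143 in 0.0732%, ZBTB33 in 0.151%, RFX in 0.526% and SIX2 in 0.0595%.

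**Figure D3:**
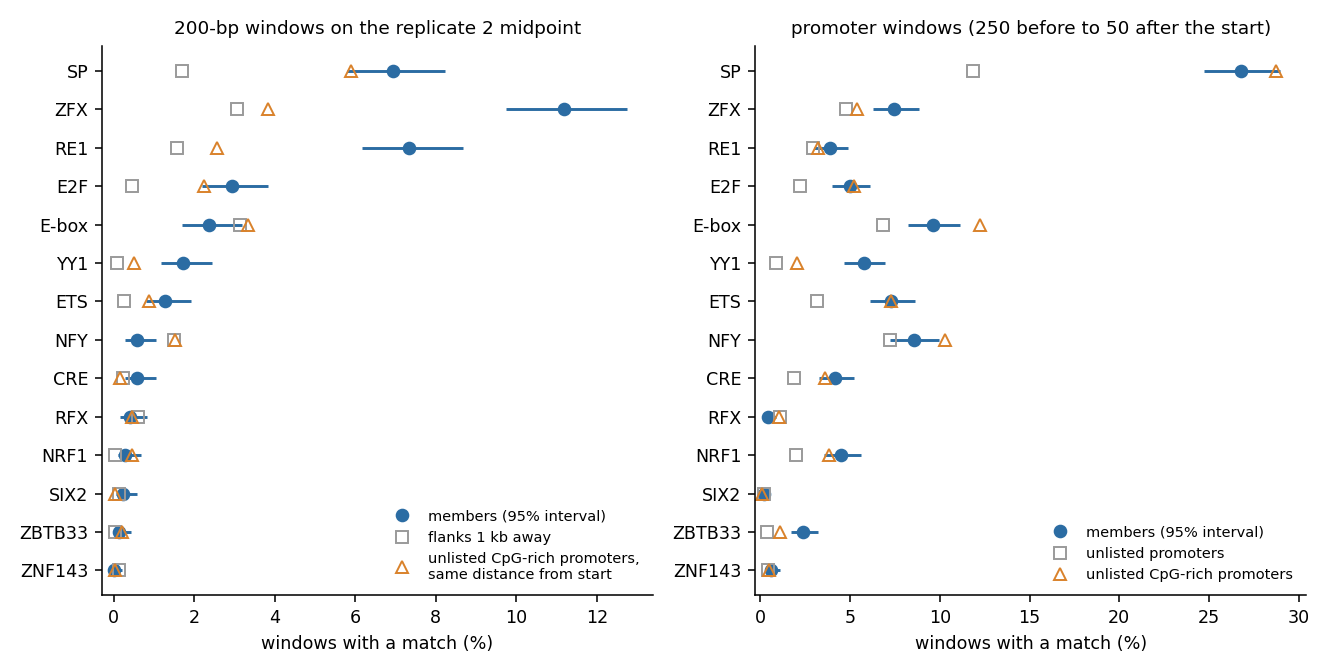
Share of windows with a match (x axis, %) for each motif, in 200-bp windows on the replicate 2 midpoint (left) and in promoter windows (right). Blue points are all members with exact 95% intervals, grey squares the flanks or the unlisted promoters, and orange triangles unlisted CpG-rich promoters. In the left panel the whole 95% interval of the members lies above both comparisons for ZFX, RE1, YY1 and CRE. In the right panel it does so for YY1, ZBTB33 and ZFX.

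The promoter itself was then examined in windows from 250 bases before to 50 after the TSS, in 1687 members and in 15472 single coding promoters with no listed peak. Members were CpG-rich (GC of at least 50% and an observed to expected CpG ratio of at least 0.6) in 88.9% (95% CI 87.3 to 90.4%) against 29.4% of unlisted promoters, a difference whose Fisher's exact p is too small for the software to hold. Their median GC content was 67% against 52.7%, and the median CpG ratio 0.879 against 0.362. Promoters listed in 1 replicate came close, at 86% for replicate 1 only (Fisher's exact test, p = 0.0145) and 84% for replicate 2 only (p = 0.00152). Genes at members were longer than those of all unlisted promoters, with a median of 35299 bp against 14210 bp. The first exon had a median of 205 bp in both sets. Neither length was compared within CpG-rich promoters alone.

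Of the 14 motifs, 9 were more frequent in member promoters than in unlisted ones and 1 was less frequent. YY1 differed most in proportion, at 5.75% against 0.853% (adjusted p = 9.04e-38, Fisher's exact test). ZBTB33, the letters read by the methyl-CpG binding factor Kaiso, were in 2.37% against 0.381% (adjusted p = 3.83e-15, Fisher's exact test), and SP in 26.8% against 11.9% (adjusted p = 9.51e-54). ETS (7.29% against 3.17%), NRF1 (4.51% against 1.96%), CRE (4.15% against 1.89%), E2F (4.98% against 2.23%), E-box (9.6% against 6.82%) and ZFX (7.47% against 4.75%) were higher too, with adjusted p of at most 7.75e-05. RFX was lower, at 0.415% against 1.07% (adjusted p = 0.00943, Fisher's exact test). RE1 (3.85% against 2.92%, adjusted p = 0.0539, Fisher's exact test), NFY (8.54% against 7.24%), ZNF143 and SIX2 did not pass.

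Base composition moved with most of these differences. When only CpG-rich promoters were compared, YY1 (5.93% against 2.07%, adjusted p = 2.29e-11, Fisher's exact test), ZBTB33 (2.6% against 1.1%, adjusted p = 0.000665) and ZFX (7.53% against 5.41%, adjusted p = 0.0143) remained higher in members, and RFX lower (0.333% against 1.01%, adjusted p = 0.0375). SP turned to 28.3% against 28.7% and did not pass, and the E-box reversed to 9.8% against 12.3% (adjusted p = 0.0372, Fisher's exact test). ETS, NRF1, CRE and E2F no longer passed. Over all coding promoters of the annotation these 300-bp windows held SP in 15.3%, YY1 in 1.81%, ZBTB33 in 0.911%, ZFX in 5.2%, ETS in 4.92%, NRF1 in 2.65%, CRE in 2.48%, E2F in 3.02%, E-box in 7.8%, NFY in 7.95%, RFX in 1.06%, RE1 in 2.95%, ZNF143 in 0.494% and SIX2 in 0.174%.

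Members were also set against the most similar promoters, those listed in 1 replicate. Of the 14 motifs, 1 differed from the 1448 promoters listed in replicate 1 only, which was ETS (7.29% in members against 10.6%, adjusted p = 0.0175, Fisher's exact test). In a window of 500 bases before to 100 after the TSS that difference did not pass, and RE1 did (8.24% against 5.52%, adjusted p = 0.0435, Fisher's exact test). Against replicate 2 only, 0 motifs passed at an adjusted threshold by Fisher's exact test, and 1, RFX, had an unadjusted p of 0.0442.

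Matches of several motifs had preferred positions around the start. SP letters peaked in the 50 bp before the TSS (187 of 1147 matches within 500 bp) and ETS did the same (50 of 205), and 81.2% of NFY matches lay upstream. YY1 letters peaked in the 50 bp from the TSS onward, with 59 of 179 matches, 46 of them on the sense strand. ZFX letters peaked 200 to 250 bp downstream (65 of 691), where the replicate 2 midpoints also had their median. RE1 was spread more evenly, with 9 to 22 of its 263 matches per bin (the most at 200 to 250 bp) and 45.6% of them upstream.

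**Figure D4:**
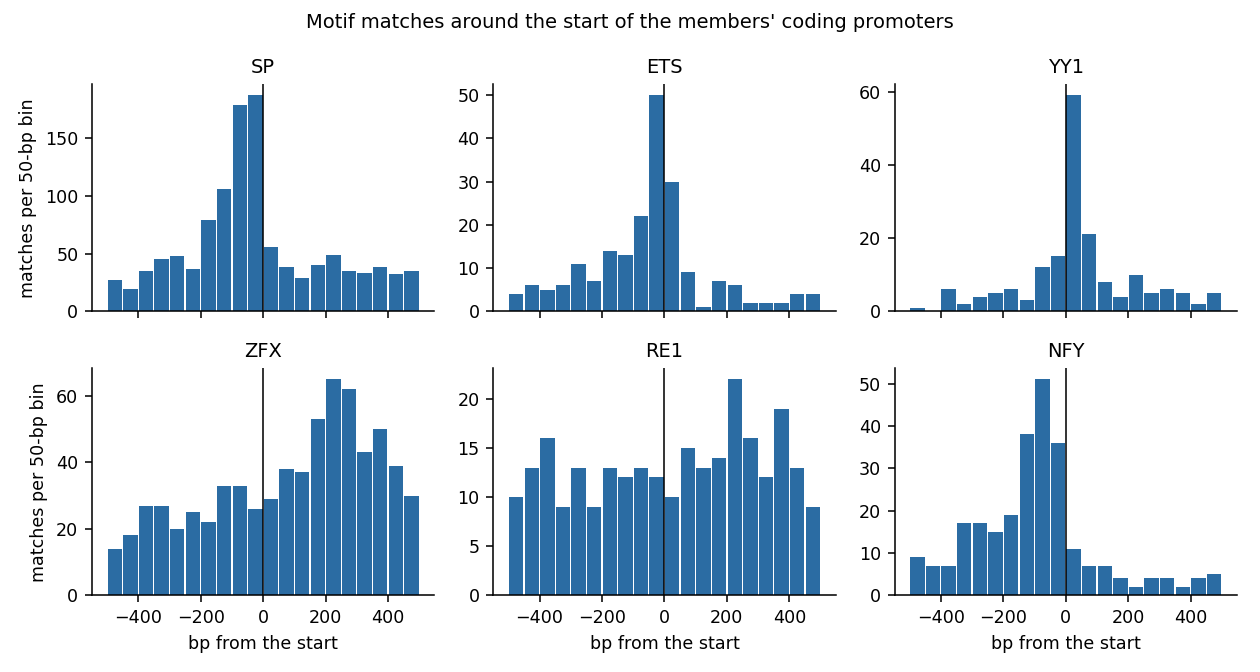
Matches per 50-bp bin (y axis) by distance from the TSS (x axis, bp, negative upstream) in the 1687 members with a coding start, for 6 motifs. SP, ETS and NFY lie mainly before the start, YY1 peaks just after it with 59 matches, and ZFX peaks 200 to 250 bp downstream.

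The YY1 letters hold an ATG, and matches on the sense strand were therefore compared with annotated start codons. They lay in the first 50 bp on the sense strand in 45 members (2.67%) against 0.511% of unlisted promoters (Fisher's exact test, p = 1.59e-15). In 31 of these 45 (68.9%) the ATG was an annotated start codon, and in 49 of 79 unlisted promoters (62%).

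A pair of other features of the start was counted. A TATA box, TATAAA beginning 40 to 20 bases before the TSS, was in 16 members (0.948%, 95% CI 0.543 to 1.54%) against 3.13% of unlisted promoters (Fisher's exact test, p = 1.7e-08), and in CpG-rich promoters alone the shares were 1% and 0.946% (p = 0.879, Fisher's exact test). Chga, Sod1 and H3f3b were among those 16. The start of a noncoding gene on the opposite strand lay within 1 kb in 223 members (13.2%) against 6.11% (Fisher's exact test, p = 1.71e-23), and in CpG-rich promoters the shares were 13.53% and 11.8% (p = 0.0763).

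RE1 set a group of members apart. An element with at most 2 mismatches lay anywhere in the interval of 310 members, with 0 mismatches as the best in 38, 1 in 54 and 2 in 218. The 310 were 17.8% of members, against 10% of promoters listed in replicate 1 only (149 of 1488). Member intervals were wider, at medians of 1142 and 923 bp, and a share expected from length was not computed. All 38 members with a perfect element had it within 75 bp of the replicate 2 midpoint, at a median of 15.5 bp. For a best element of 1 mismatch that share was 63% (34 of 54) and for 2 mismatches it was 21.1% (46 of 218), at medians of 30.5 and 225.5 bp. The wider replicate 1 peaks were centred less closely, with 12 of the 38 perfect elements within 75 bp of the midpoint and a median of 106 bp. Intervals with a perfect element were narrower, at a median of 738.5 bp, and 16 of the 33 with a coding start were CpG-rich.

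**Figure D5:**
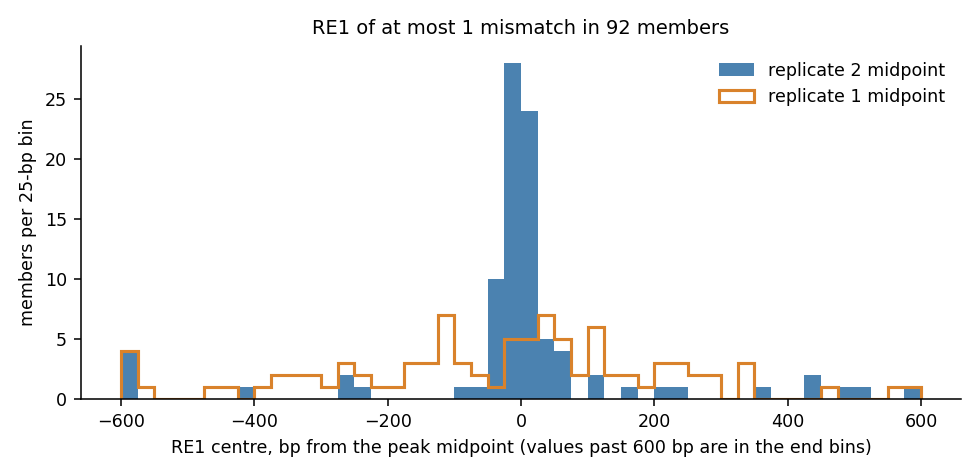
Distance of the RE1 nearest to the replicate 2 midpoint from the peak midpoint (x axis, bp) in the 92 members with an element of at most 1 mismatch, as members per 25-bp bin (y axis), for replicate 2 (blue) and replicate 1 (orange outline), with values beyond the axis in the end bins. In replicate 2, 52 elements lie within 25 bp of the midpoint, against 10 in replicate 1.

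The 38 members with a perfect element are named here in full. Ion channels and transmitter receptors were Chrnb2, Drd2, Glra1, Grin1, Hcn3, Kcnh4, Scn2a and Trpc7. Secretory proteins were Chga, Chgb, Ptprn, Bdnf and Crh, the gene of corticotropin-releasing hormone, and synaptic proteins were Snap25, Syt7 and Olfm3. Transcription factors were Lhx3, Npas4, Meis3 and Pou4f3, adhesion and matrix genes were Cntnap2 and Tnr, and Nefh encodes a neurofilament. The remaining elements lay at Alk, Celf6, Fam155a, Gm10805, Gm20715, Lhfpl5, March11, Prmt8, Rtbdn, Slc5a11, Slc7a14, Syndig1l, Unc79, Vstm2l and Xkr4. At Lhx3, which specifies motor neurons and pituitary cells, the element lay 5 bp downstream of the TSS and 2.5 bp from the replicate 2 midpoint, in an interval of 501 bp. At Drd2, a dopamine receptor, it lay 12.5 bp from the midpoint, and at Alk, a receptor tyrosine kinase, 0.5 bp.

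Elements with 1 mismatch were spread more widely. Near the replicate 2 midpoint lay those of Cacna1b (14.5 bp), Cartpt, a neuropeptide precursor (5.5 bp), Pcdh8, a protocadherin (6 bp), Trpm3, a cation channel (6 bp), Rundc3a (10 bp), the glutamate transporter Slc17a6 (22.5 bp) and the chloride transporter Slc12a5 (26.5 bp). The 20 members whose element lay past 75 bp follow in full. Those of Cacng2 (78 bp), Atp2a2 (105.5 bp), Bmt2 (115 bp) and Spindoc (164 bp) lay within 200 bp. Those of Kdelr1 (215 bp), Rpl32 (245 bp), Exoc4 (248 bp), Bend5 (260 bp), Birc6 (263 bp), Trnau1ap (366.5 bp), Zbed6 (405.5 bp) and Odf2l (430.5 bp) lay farther away. The greatest distances were at Scmh1 (449.5 bp), Ube2g1 (478.5 bp), Set (515.5 bp), Larp4b (583 bp), Pcnx (616 bp), Vgf (859.5 bp), Ssbp2 (916 bp) and Celsr3 (972 bp). Vgf is a neuronal granule protein and Celsr3 a cadherin of developing axons, while Set is a histone chaperone, Rpl32 a ribosomal protein and Ube2g1 a ubiquitin conjugating enzyme.

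Members with RE1 in the 200-bp window differed from the rest in base composition but not detectably in position. They were CpG-rich in 76 of 112 (67.9%) against 90.4% of 1575 (Fisher's exact test, p = 3.3e-10). Their replicate 2 midpoint was downstream in 82.1% against 87.7% (p = 0.103, Fisher's exact test), at medians of 240 and 233 bp.

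RE1 also separated members from promoters listed once, in opposite directions. On replicate 1 midpoints, 4.7% of member windows (95% CI 3.76 to 5.81%) held RE1 against 1.95% of promoters listed in replicate 1 only (Fisher's exact test, p = 1.6e-05). On replicate 2 midpoints the share was 7.34% (95% CI 6.16 to 8.67%) against 10.5% in replicate 2 only (95% CI 8.37 to 13%, Fisher's exact test, p = 0.0126). Over whole intervals the latter order turned, to 17.8% against 10.4% (p = 2.46e-06, Fisher's exact test). Member intervals had a median width of 1142 bp and those of replicate 2 only 162 bp, so the searched lengths differed.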

How the data were processed

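Eya1 ChIP and control libraries were made from E13.5 kidneys. Per the study's methods, the authors used Bowtie with default options on mm10 (the submitters' processing notes name HISAT2) and called peaks with MACS at various cutoffs against input or IgG. The deposited values are peak positions, as chromosome, start and end, with no score, count or depth, and input and IgG have no list here. Groups and replicate numbers came from the labels. The 11 mitochondrial peaks of replicate 2 were left out, and 0 nuclear peaks passed a chromosome end of GRCm38.

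Members and gene lists were chosen with earlier results of these data known. Peaks sharing at least 1 bp were merged. Promoter windows used the basic protein-coding transcript start nearest the interval midpoint. Unlisted promoters were coding genes outside divergent pairs with no peak within 1 kb, 1 start each. Where a replicate had several peaks in an interval, the widest gave the midpoint. Differences between shares were tested two-sided with Fisher's exact test (threshold 0.05), beside exact Clopper-Pearson 95% intervals, and motif p-values were adjusted over the 14 motifs by Benjamini-Hochberg. Gene counts had no test. Named genes were up to 4 per list with the longest replicate 2 peaks, every member gene of the nephron progenitor, Rest and neuronal lists, members at the rule's limits, members with RE1 of at most 1 mismatch and, per called motif, the member with the match nearest to the replicate 2 midpoint. These nearest matches were sought among members with a coding start outside chromosome 18. Other genes were named as examples of a list, or after their values were seen. On simulated windows of random bases, with the same GC content in both sets, the search found 100% of planted elements. There the test called 100% of lifted and 0.556% of other motifs. Sets that differ in base composition were not simulated, so that rate does not cover them. Positions are 1-based. The tools were scipy 1.17.1, pysam 0.24.0, pandas 2.3.3, numpy 2.4.6 and, for plots, matplotlib 3.10.9, under Python 3.11.15. Alternatives covered the rule, windows, backgrounds, composition and leaving out a replicate. Some member genes are not reported here by name.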

Additional observations from a re-analysis of the deposited data

Results flagged for a closer look

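Replicate 2 listed 11 peaks on the mitochondrial chromosome, where replicate 1 listed 0. They lie outside the nuclear intervals compared above, and no member rests on them. The difference between the lists was not tested.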

How the results depend on the processing

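The number of members was 1743 and stayed between 1393 and 1838 under every other rule, apart from lists of 1 replicate alone, which gave 3155 to 3238 single promoters. In CpG-rich promoters alone, 5 in place of 10 motifs differed from unlisted promoters, and the E-box reversed (9.8% against 12.3%). SP (28.3% against 28.7%), the TATA box share (1%) and noncoding antisense starts (13.53%) no longer passed. Against CpG-rich unlisted windows at the same distance from the TSS, 5 in place of 8 motifs of the peak windows differed. NRF1 was lower there without passing (0.267% against 0.44%). Against replicate 2 only, the RE1 share reversed over whole intervals (17.8%) and was weaker in 400-bp windows (10.3% against 13%, p = 0.0568, Fisher's exact test). With the annotated gene 5′ end in place of the nearest start, 94.9% of midpoints lay downstream. The midpoints of 1 replicate alone gave 87.2 to 87.4%. These are the same members, chosen with both replicates, so selection without a replicate was not checked for this share. The cause of these shifts was not tested. ChIP and control could not be compared because input and IgG have no peak list here. The tests against flanks did not pair a window with the flanks of its own member. Peak lists without counts leave depth unknown.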
